A study of Homo sapiens with 12 samples.

Results

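IL13RA2, IL13RA1 and IL4R encode the receptor chains that bind interleukin 13 and interleukin 4, the cytokines of type 2 immunity. All 7 probe sets that carry 1 of these 3 symbols alone in the deposited annotation were taken, 1 for IL13RA2, 4 for IL13RA1 and 2 for IL4R, of 54613 probe sets and 19682 singly named genes in all. The 3 genes were picked with their signals on these arrays known, so their levels and differences are given as a description, with no test. The cells were Ect1, a line of human ectocervical epithelium immortalised with papillomavirus genes, which is a single line and not primary tissue. In all, 3 groups of 4 arrays each (Affymetrix Human Genome U133 Plus 2.0) were compared, all after 10 h: cells given medium with 10% (by volume) pooled human seminal plasma, cells given TGFB3 at 5 ng/ml, and control cells given medium alone. The medium shared by all of them was serum-free keratinocyte medium with EGF and bovine pituitary extract, and each array was described as a biological replicate made from 4 pooled wells.

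Interleukin 4 and interleukin 13 share the type II receptor of epithelial cells, a pair of IL4R and IL13RA1 chains that signals through JAK kinases to STAT6. IL13RA2 binds interleukin 13 very tightly, has a short cytoplasmic tail and is best known as a decoy that keeps the cytokine from the signalling pair, although signalling of its own has also been described. Epithelial cells of the airway and skin raise IL13RA2 as part of the feedback on interleukin 13, and in other tissues interleukin 13 acting through IL13RA2 has been linked to production of transforming growth factor beta.

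Values are linear signals in the arbitrary units of the array software, without a background call per probe set, and signals under 16 were set to 16 before log2 was taken. Seminal plasma replicates 3 and 4 differed in their signal distribution from the remaining 10 arrays. They had 8.01% and 12.8% of probe sets below 16 (16.3% to 20.2% on the others), and the 100 highest signals made up 18.41% and 15.36% of the total (7.66% to 11.6% on the others). List genes were read at their probe set of highest mean log2 value. At that probe set a difference is also given without these 2 arrays where that changed its call or turned its sign. Markers of squamous epithelium were bright on every array, with a summed signal over 8 genes of 279500.5 to 435107 with seminal plasma, 191420.4 to 279148 with TGFB3 and 174038 to 259338 in controls. The 8 did not move together. Means of SFN, KRT14, KRT5, KRT6A and KRT13 were higher with seminal plasma than in controls, and those of CDH1, DSP and TP63 lower. SFN averaged 101773 with seminal plasma and 36488 in controls, and CDH1 7878 and 11898.

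Seminal plasma cultures held far more IL13RA2 signal than either other group. IL13RA2 (probe set 206172_at) read 855, 391, 595 and 1120.5 on seminal plasma replicates 1 to 4, against 77.0, 14.3, 34.7 and 10.6 on TGFB3 replicates 1 to 4. On control replicates 1 to 4 it read 12.2, 22.3, 11.04 and 23.7. Every seminal plasma array lay above every other array, and 2 arrays of each other group read below the floor of 16.

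The mean IL13RA2 signal was 741 ± 317 with seminal plasma and 17.3 ± 6.62 in controls (SD, n = 4 each). The log2 difference, seminal plasma minus control, was 5.16 ± 0.5 (SE from the spread shared by the 3 groups), and 4.92 ± 0.65 without seminal plasma replicates 3 and 4. The lowest seminal plasma signal was 16.5 times the highest control signal. The size of the fold was set partly by the floor, because 2 of 4 control arrays read below 16: with a floor of 64 the log2 difference was 3.42. In the authors' deposited table the fold of IL13RA2 with seminal plasma over control was 42.82 and the probe set was called as changed.

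Only 2 of the 54613 probe sets had a larger log2 difference between seminal plasma and control than IL13RA2, and the count stayed at 2 without seminal plasma replicates 3 and 4. With the floor of 64, 17 did. Changes of this size are at the far end of this comparison, in which the median over all probe sets was 0.2. More cells that express a gene and more RNA per cell cannot be told apart in such bulk cultures.

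TGFB3 gave no such level of the decoy receptor. The mean IL13RA2 signal was 34.2 ± 30.5 with TGFB3 (SD, n = 4), with 2 arrays below 16. The log2 difference, TGFB3 minus control, was 0.58 ± 0.5 (SE), and it rested on TGFB3 replicate 1: without that array it was 0.11, and over the 12 fits that left out 1 array it ran to 0.87. TGFB3 arrays overlapped the controls. Set directly against TGFB3, IL13RA2 was higher with seminal plasma by 4.58 ± 0.5 on the log2 scale, with the lowest seminal plasma signal 5.08 times the highest TGFB3 signal. That difference was 3.36 with the floor of 64. In the authors' deposited table the fold of IL13RA2 with TGFB3 over control was 1.98, with no call.

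**Figure D1:**
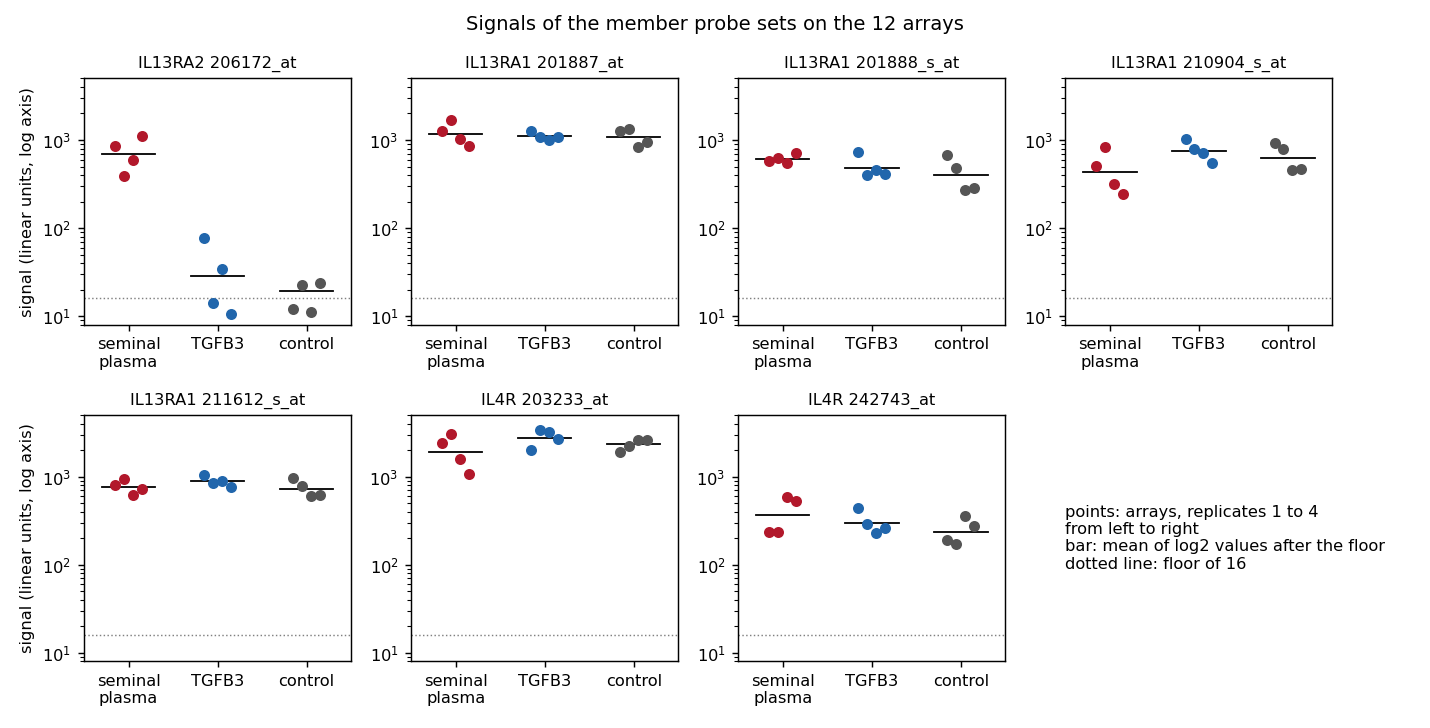
Signals of the 7 probe sets of IL13RA2, IL13RA1 and IL4R on the 12 arrays (linear units on a log axis); each point is 1 array, with replicates 1 to 4 of a group running from left to right, the bar is the mean of the log2 values and the dotted line marks the floor of 16. The IL13RA2 points of seminal plasma (391 to 1120.5) lie above all points of TGFB3 (10.6 to 77.0) and of control (11.04 to 23.7), and in the other 6 panels the groups overlap.

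Among the 7 member probe sets, IL13RA2 was the only one without overlap between its seminal plasma and control arrays. Of all probe sets, 13.2% had no overlap between these groups. Between seminal plasma and TGFB3 the same single member was apart, against 9.97% of all probe sets, and between TGFB3 and control none of the 7 was, against 7.98%. These shares are background for the counts and nothing is read from them about the members.

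IL13RA1, the chain that binds interleukin 13 weakly and then recruits IL4R, had signal on every array at all of its 4 probe sets. At 201887_at it read 1268, 1698, 1037 and 864 on seminal plasma replicates 1 to 4 and 1252, 1089, 1003 and 1078 on TGFB3 replicates 1 to 4. Control replicates 1 to 4 read 1265, 1331, 826 and 943. The groups overlapped throughout, and the log2 difference from control was 0.14 ± 0.23 (SE) with seminal plasma and 0.04 ± 0.23 with TGFB3.

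The other IL13RA1 probe sets did not move together with seminal plasma. Probe set 201888_s_at read 550 to 714 with seminal plasma, 398 to 731 with TGFB3 and 274 to 676 in controls, and its log2 difference from control was 0.61 ± 0.31 (SE) with seminal plasma and 0.27 ± 0.31 with TGFB3. Probe set 210904_s_at read 245 to 835 with seminal plasma, 545 to 1023 with TGFB3 and 457 to 915 in controls, and differed from control by -0.55 ± 0.39 with seminal plasma and by 0.25 ± 0.39 with TGFB3. Probe set 211612_s_at read 618 to 941 with seminal plasma, 759 to 1049 with TGFB3 and 609 to 977 in controls, and differed from control by 0.06 ± 0.2 and 0.27 ± 0.2 with these treatments. Thus 1 of the 4 differences from control with seminal plasma was negative and 3 were positive, of which 201887_at and 211612_s_at turned to -0.25 and -0.33 when arrays were centred on their median and to -0.04 each without seminal plasma replicate 2. All 4 were positive with TGFB3, where 201887_at turned to -0.02 after centring and to -0.08 at the lowest when 1 array was left out.

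The negative value at 210904_s_at came from the same 2 arrays. That probe set read 318 and 245 on seminal plasma replicates 3 and 4, the lowest of all 12 arrays, and without them the log2 difference from control was 0.06. At 201887_at the difference was 0.46 without the same arrays. Controls also varied among themselves in a shared way: at each of the 4 probe sets control replicates 1 and 2 read above control replicates 3 and 4.

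IL4R, the chain shared by interleukin 4 and interleukin 13, was measured by 2 probe sets. The brighter, 203233_at, read 2396, 3091, 1586 and 1080.47 on seminal plasma replicates 1 to 4 and 1985, 3351, 3239 and 2691 on TGFB3 replicates 1 to 4. Control replicates 1 to 4 read 1898, 2253, 2628 and 2582. The groups overlapped, with a log2 difference from control of -0.3 ± 0.31 (SE) with seminal plasma and 0.25 ± 0.31 with TGFB3.

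The second IL4R probe set went the other way with seminal plasma. Probe set 242743_at read 236, 237, 587 and 533 on seminal plasma replicates 1 to 4, against 442, 294, 230.05 and 263 with TGFB3. Control replicates 1 to 4 read 191, 173, 356 and 275. Its log2 difference from control was 0.61 ± 0.37 (SE) with seminal plasma and 0.32 ± 0.37 with TGFB3.

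The split between both IL4R probe sets lay in seminal plasma replicates 3 and 4, where 203233_at was at its lowest of the 12 arrays (1586 and 1080.47) and 242743_at at its highest (587 and 533). Without them the differences from control were 0.23 at 203233_at and -0.01 at 242743_at. Which transcripts each probe set reads was not analysed here, and the part of these arrays' other differences in the split was not tested.

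The decoy and the signalling chains were then set side by side by their change on each array, since levels of different probe sets are not comparable. The mean log2 change of IL13RA1 over its 4 probe sets was 0.06 ± 0.35 with seminal plasma and 0.21 ± 0.26 with TGFB3 (SD, n = 4 arrays each). That of IL4R over its 2 probe sets was 0.16 ± 0.17 with seminal plasma and 0.29 ± 0.11 with TGFB3. These means and SDs cancel opposite changes on seminal plasma replicates 3 and 4. For IL4R the changes there were -0.55 and -1.1 at 203233_at, and 1.3 and 1.16 at 242743_at. For IL13RA1 they were -0.98 and -1.36 at 210904_s_at, and 0.46 and 0.84 at 201888_s_at. The IL13RA2 change minus the mean of both chains was 5.39, 3.99, 4.87 and 5.96 on seminal plasma replicates 1 to 4, which averages 5.05 ± 0.84. With TGFB3 it was 1.55, -0.54, 0.68 and -0.34, averaging 0.34 ± 0.97, and the 4 control arrays lay between -0.35 and 0.38. All seminal plasma arrays were thus far above all other arrays on this measure, while TGFB3 arrays fell on both sides of 0. With the floor of 64 the seminal plasma value was 3.32.

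**Figure D2:**
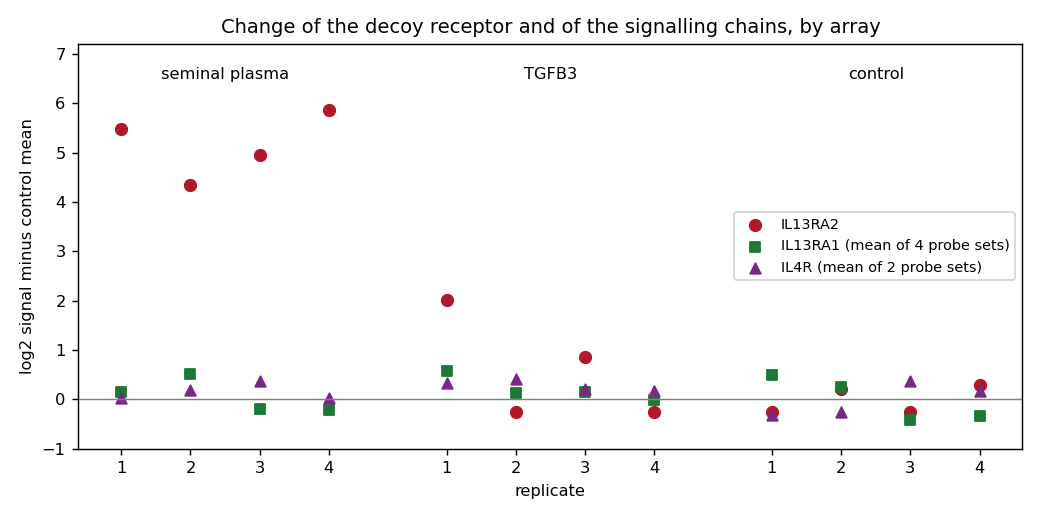
Log2 signal minus the mean of the 4 control arrays for IL13RA2 (circles), IL13RA1 (squares, mean of 4 probe sets) and IL4R (triangles, mean of 2 probe sets), by array, with seminal plasma, TGFB3 and control from left to right. On seminal plasma arrays IL13RA2 lies between 4.35 and 5.87 while IL13RA1 lies between -0.21 and 0.52 and IL4R between 0.02 and 0.38.

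The rest of the pathway was described through 87 measured genes of 8 lists, each at its probe set of highest mean log2 value. Each was tested with limma over all probe sets (adjusted p below 0.05). With seminal plasma against control, 3 of the 87 rose and 2 fell, where 1.74% of all probe sets were called higher and 1.21% lower. The median log2 difference was 0.18 over the 87 genes and 0.2 over all probe sets. With TGFB3, 1 rose and none fell, where 0.168% of all probe sets were called higher and 0.022% lower; the median was -0.04 over the genes and 0 over all probe sets. At an unadjusted limma p below 0.05, 22 of the 87 were higher and 10 lower with seminal plasma, where 14.6% of all probe sets were higher and 10.2% lower. With TGFB3, 12 of the 87 were higher and 2 lower by the same rule, where 4.06% of all probe sets were higher and 3.48% lower. The lists' counts at an unadjusted p are set against these shares. Without seminal plasma replicates 3 and 4, 5 rose and 1 fell with seminal plasma, against 0.584% and 0.403% of all probe sets. In the same fit 5 rose and none fell with TGFB3, against 0.399% and 0.143% of all probe sets. The TGFB3 arrays were the same there but shared a changed estimate of spread. With only the 8 arrays compared, SOCS2 alone of the 5 kept its call with seminal plasma, and with arrays centred on their median the 3 higher ones and TGM2 missed the threshold. Leaving out 1 array gave 2 to 8 higher and 0 to 5 lower with seminal plasma, the most (8 and 5) without seminal plasma replicate 2, where 9.36% of all probe sets were called higher and 6.94% lower, and none lower without any 1 control array or seminal plasma replicate 4. Both treatments were compared with the same 4 control arrays.

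**Figure D3:**
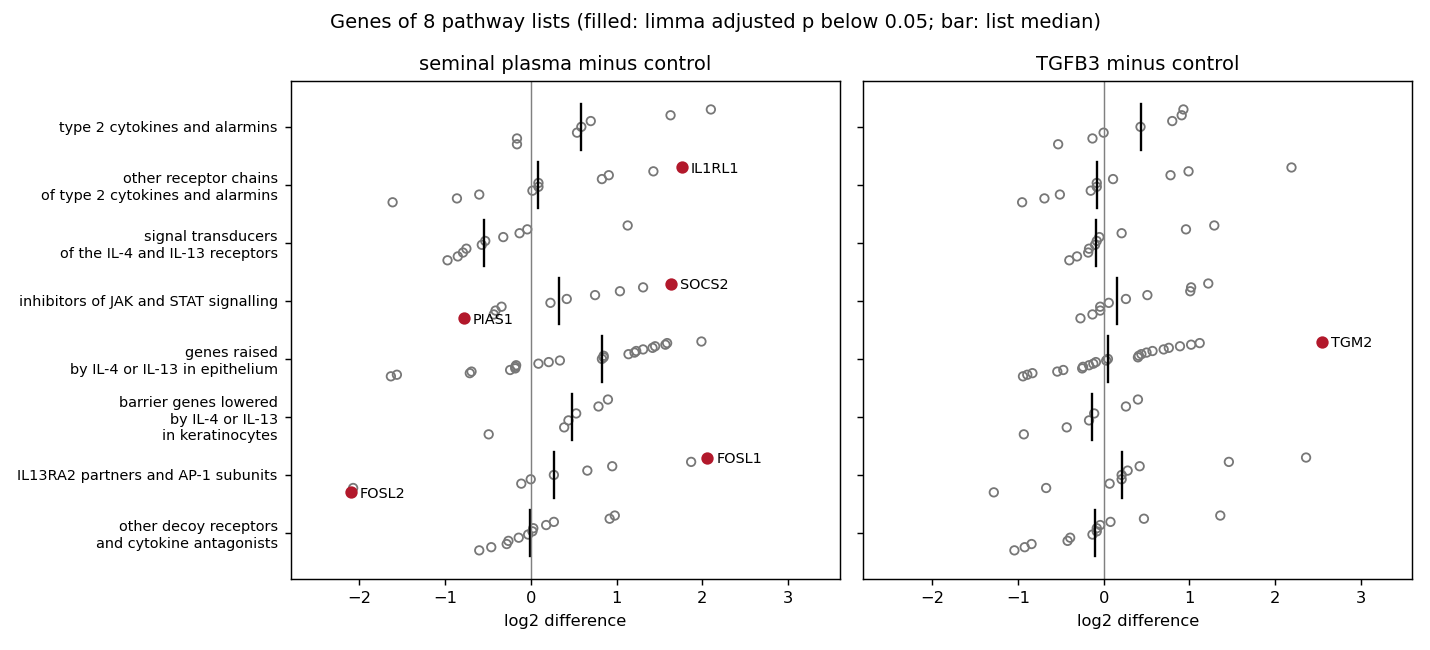
Log2 difference from control for the genes of 8 lists, with seminal plasma on the left and TGFB3 on the right; each circle is 1 gene, filled circles passed limma's adjusted p of 0.05 and the bar is the list median. The filled circles are IL1RL1, SOCS2 and FOSL1 (higher) and PIAS1 and FOSL2 (lower) with seminal plasma, and TGM2 (higher) with TGFB3.

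Among the ligands, none of 7 measured cytokines and alarmins passed limma's threshold with either treatment, and 2 were higher with seminal plasma and 1 with TGFB3 at an unadjusted p below 0.05 (14.6% and 4.06% of all probe sets). IL13, the ligand of the decoy, read 63.5 to 165 with seminal plasma, 77.6 to 169 with TGFB3 and 71.1 to 168 in controls, with a log2 difference from control of -0.16 ± 0.37 (SE) with seminal plasma, which turned to 0.2 without seminal plasma replicates 3 and 4, and -0.13 ± 0.37 with TGFB3. IL4 read 6.36 to 177, 9.0 to 62.1 and 30.6 to 62.1 in the same groups, and its difference from control with seminal plasma was 0.59, or -0.64 without those 2 arrays. Both ligands are products of leukocytes as a rule, and their groups overlapped in these epithelial cultures.

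IL33, an epithelial alarmin that signals through IL1RL1, was the ligand nearest the threshold. It read 118, 204, 7.59 and 64.3 on seminal plasma replicates 1 to 4, against 14.2, 41.3, 23.02 and 3.9 with TGFB3 and 1.45, 3.25, 17.9 and 6.19 in controls. Seminal plasma replicates 1, 2 and 4 were above all other arrays and replicate 3 was not. The IL33 log2 difference from control was 2.1 ± 0.65 (limma adjusted p = 0.089), 2.81 without seminal plasma replicate 3 (adjusted p = 0.0204) and 3.24 without replicates 3 and 4 (adjusted p = 0.0143). IL25, another alarmin, read 35.7 to 99.3 with seminal plasma, 16.3 to 146 with TGFB3 and 14.6 to 31.6 in controls (seminal plasma minus control 1.63 ± 0.61, limma adjusted p = 0.133). IL9 read 8.34 to 49.8 with seminal plasma, 6.53 to 62.1 with TGFB3 and 3.13 to 7.89 in controls, with every control array under the floor. TSLP, also an alarmin, read 167 to 385 with TGFB3 and 131 to 142 in controls (0.91 ± 0.25, limma adjusted p = 0.28).

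Of 10 other receptor chains, IL1RL1 alone rose with seminal plasma and none fell, while none passed with TGFB3. At an unadjusted limma p below 0.05, 3 were higher and 1 lower with seminal plasma (14.6% and 10.2% of all probe sets). With TGFB3, 2 were higher and none lower by that rule (4.06% and 3.48%). IL1RL1 encodes the interleukin 33 receptor ST2, of which a soluble form acts as a decoy for its ligand. At 242809_at it read 1191, 509, 716 and 583 on seminal plasma replicates 1 to 4, against 218, 233, 183 and 166 with TGFB3 and 203, 259, 179 and 206 in controls. Every seminal plasma array was above every other array. The log2 difference from control was 1.76 ± 0.26 (limma adjusted p = 0.0125), and the call held in each fit that left out 1 array and without seminal plasma replicates 3 and 4 (adjusted p = 0.0452).

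Its other probe sets spread widely. IL1RL1 207526_s_at read 4102, 370.1, 2327 and 1431 with seminal plasma, 101 to 124 with TGFB3 and 59.6 to 123 in controls, a log2 difference from control of 4.17 ± 0.59 (limma adjusted p = 0.0113). At 234066_at the difference was 2.11 ± 0.55 (adjusted p = 0.0617), and at the dim 210442_at it was 0.46 ± 0.33. All 4 were positive with seminal plasma, and both called ones left all seminal plasma arrays above all controls.

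IL2RG, the common gamma chain that pairs with IL4R on leukocytes, read 97.2 to 157 with seminal plasma, 14.4 to 194 with TGFB3 and 44.95 to 185 in controls, and overlapped. IL7R, the receptor chain for interleukin 7 that also serves TSLP, read 912 to 2211 with TGFB3 and 201 to 456 in controls. Its log2 difference, TGFB3 minus control, was 2.19 ± 0.37 (limma adjusted p = 0.0569) and passed without seminal plasma replicate 4 (adjusted p = 0.0369) and without replicates 3 and 4 (adjusted p = 0.0415). IL5RA read 52.1 to 91.3 with TGFB3 and 22.4 to 44.3 in controls (0.99 ± 0.38, limma adjusted p = 0.531).

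None of the 10 signal transducers passed limma's threshold against control with either treatment. At an unadjusted limma p below 0.05, 1 was higher and 5 lower with seminal plasma (14.6% and 10.2% of all probe sets), and 2 higher and none lower with TGFB3 (4.06% and 3.48%). Leaving out seminal plasma replicates 3 and 4, none of the 10 was higher and 2 lower with seminal plasma, against 7.47% and 7.18% of all probe sets. The median log2 difference of this list was -0.55 with seminal plasma, against 0.2 over all probe sets, and -0.3 against 0 without seminal plasma replicates 3 and 4. STAT6, the transcription factor that interleukin 4 and interleukin 13 activate, read 2919, 3157, 1615 and 1659 on seminal plasma replicates 1 to 4, against 1757, 2942, 2658 and 2720 with TGFB3 and 2337, 2355, 3551 and 3099.78 in controls. The groups overlapped, and the difference from control was -0.32 ± 0.28 with seminal plasma and -0.17 ± 0.28 with TGFB3. The STAT6 difference with seminal plasma turned to 0.12 without seminal plasma replicates 3 and 4, the 2 lowest of the 12 arrays.

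The receptor kinases and STAT3, which interleukin 4 receptors can also engage, gave values with seminal plasma that did not pass against control. TYK2, which binds IL13RA1, read 709.7 to 1098 with seminal plasma and 1114 to 1342 in controls, without overlap (-0.57 ± 0.17, limma adjusted p = 0.0874, and 0.0148 without seminal plasma replicate 2). STAT3 read 1024 to 2514 with seminal plasma and 2377 to 3780.21 in controls (-0.97 ± 0.32, limma adjusted p = 0.101, and 0.0434 without replicate 2, while without replicates 3 and 4 the difference was -0.4 with an adjusted p of 0.489). JAK1, which binds IL4R, read 2450, 2541, 1156 and 781 on seminal plasma replicates 1 to 4, against 3807, 6077, 5772 and 4751 with TGFB3 and 2531 to 2678 in controls. TGFB3 arrays were the highest of all and seminal plasma replicates 3 and 4 the lowest. The JAK1 difference from control was -0.75 with seminal plasma (limma adjusted p = 0.216), or -0.05 without those 2 arrays, and 0.96 with TGFB3 (adjusted p = 0.505), which passed without them (adjusted p = 0.0391). Directly compared, JAK1 was lower with seminal plasma than with TGFB3 (log2 difference -1.7 ± 0.35, limma adjusted p = 0.0436), and missed the threshold without seminal plasma replicates 3 and 4 (-1.01, adjusted p = 0.0576). IRS2, an adaptor of the interleukin 4 receptor, read 277 to 760 with seminal plasma, 315 to 1005 with TGFB3 and 161 to 335 in controls.

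Of 10 inhibitors of JAK and STAT signalling, SOCS2 rose and PIAS1 fell with seminal plasma, and none passed with TGFB3. At an unadjusted limma p below 0.05, 4 were higher and 3 lower with seminal plasma (14.6% and 10.2% of all probe sets). With TGFB3, 3 were higher and none lower by that rule (4.06% and 3.48%). SOCS2, a suppressor of cytokine signalling best known from growth hormone receptors, read 7758, 7483, 5166 and 7337 with seminal plasma, against 3680, 5617, 6041 and 3169 with TGFB3 and 1905, 2589, 2130 and 2241 in controls at 203373_at. Both treated groups lay above all controls. The log2 difference from control was 1.64 ± 0.24 with seminal plasma (limma adjusted p = 0.012) and 1.02 ± 0.24 with TGFB3 (adjusted p = 0.185). A second SOCS2 probe set, 203372_s_at, disagreed on seminal plasma replicates 3 and 4. There it read 380 and 440, below all controls (815 to 1249), but on replicates 1 and 2 it read 2043 and 1961, above them. Its difference from control was -0.08 ± 0.57.

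PIAS1, an inhibitor of activated STAT proteins, read 502, 399, 604 and 613 with seminal plasma, against 1008, 800.47, 839 and 847 with TGFB3 and 984, 899.82, 806 and 895 in controls at 217864_s_at. All seminal plasma arrays lay below the rest at that probe set. The log2 difference from control was -0.78 ± 0.17 (limma adjusted p = 0.0429), and the call was lost in 9 of the 12 fits that left out 1 array, with adjusted p of 0.059 to 0.107. These were the fits without any 1 of the 4 control arrays, seminal plasma replicates 1 or 4, or TGFB3 replicates 2, 3 or 4. The other PIAS1 probe sets did not pass, with differences of -0.33 ± 0.17 at 217862_at and -0.89 ± 0.26 at 217863_at (limma adjusted p = 0.263 and 0.0791). SOCS1, the inhibitor that interleukin 4 and interleukin 13 themselves induce, read 255 to 566 with seminal plasma, 377 to 511 with TGFB3 and 207 to 237 in controls, so that both treated groups lay above all controls. Its difference from control was 0.75 ± 0.24 (limma adjusted p = 0.0997) with seminal plasma and 1.01 ± 0.24 (adjusted p = 0.202) with TGFB3. Without seminal plasma replicates 3 and 4 it passed in both (adjusted p = 0.0226 and 0.024).

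**Figure D4:**
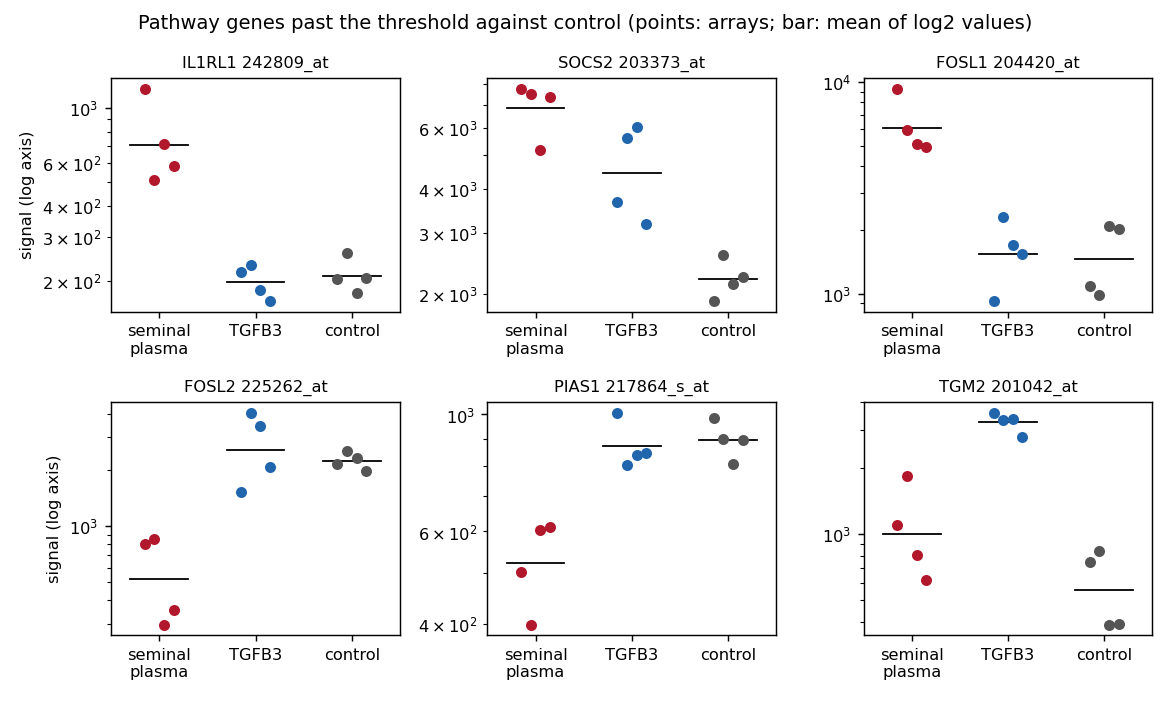
Signals of the 6 list genes that passed limma's threshold against control (log axis, own scale in each panel); points are arrays in the order of replicates 1 to 4 and bars are means of the log2 values. IL1RL1, SOCS2 and FOSL1 lie higher and FOSL2 and PIAS1 lower on all 4 seminal plasma arrays than on any control array, and TGM2 lies higher on all 4 TGFB3 arrays.

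Genes that interleukin 4 or interleukin 13 raise in epithelium were the readout of the signalling pair. None of 23 measured passed limma's threshold with seminal plasma, 8 were higher and none lower at an unadjusted p below 0.05 (14.6% and 10.2% of all probe sets), and the list median was 0.83, against 0.2 over all probe sets. Without seminal plasma replicates 3 and 4 the median was 0.22 against 0, with 2 higher at an unadjusted p below 0.05 (7.47% of all probe sets). CCL11, an eosinophil chemokine, read 89.4 to 225 with seminal plasma, 10.2 to 89.4 with TGFB3 and 25.6 to 70.1 in controls (seminal plasma minus control 1.59 ± 0.53, limma adjusted p = 0.104). ITLN1, a secreted lectin, read 82.8 to 296 with seminal plasma, 38.0 to 117 with TGFB3 and 27.0 to 76.2 in controls (1.57 ± 0.51, limma adjusted p = 0.0973).

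TGM2, the tissue transglutaminase, was the one gene of the lists that rose with TGFB3. It read 3586, 3338, 3362 and 2787 on TGFB3 replicates 1 to 4, against 749, 840.29, 387 and 389.9 in controls, and 1098, 1853, 805 and 619.91 with seminal plasma, at 201042_at. All TGFB3 arrays were above all others. The TGFB3 minus control difference was 2.55 ± 0.36 (limma adjusted p = 0.0221). The TGM2 call was lost in 6 of the 12 fits that left out 1 array, those without control replicates 3 or 4 or any 1 of the TGFB3 arrays (adjusted p 0.0569 to 0.0966). With TGFB3, 2 more TGM2 probe sets passed, 211003_x_at at 3.36 ± 0.43 and 211573_x_at at 3.39 ± 0.37 (limma adjusted p = 0.0131 and 0.00643), and the dim 216183_at gave 1.28 ± 0.91. TGM2 is known as a target of transforming growth factor beta as well as of interleukin 4 and interleukin 13. With seminal plasma 211573_x_at rose too (1.81 ± 0.37, limma adjusted p = 0.0355), while 201042_at did not pass (0.85 ± 0.36, adjusted p = 0.176).

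None of 6 barrier genes that the type 2 cytokines lower in keratinocytes passed against control. At an unadjusted limma p below 0.05, 2 were higher and none lower with seminal plasma (14.6% and 10.2% of all probe sets), and none was higher and 1 lower with TGFB3 (4.06% and 3.48%). ELOVL1, a fatty acid elongase, read 2874 to 3755 with seminal plasma, 2520.42 to 2839 with TGFB3 and 2076 to 2337 in controls (seminal plasma minus control 0.53 ± 0.13, limma adjusted p = 0.0587); it passed without seminal plasma replicate 2 or 3 (adjusted p = 0.0321 and 0.0435) and without replicates 3 and 4 (adjusted p = 0.0474). ELOVL6, another elongase, read 2280.35 to 5089 with seminal plasma, 759 to 1478 with TGFB3 and 1393 to 2408 in controls. The seminal plasma minus TGFB3 difference was 1.82 ± 0.31 in log2 units (limma adjusted p = 0.027; 0.1 without seminal plasma replicates 3 and 4), and against control it passed without seminal plasma replicate 2 (adjusted p = 0.0356).

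Partners of IL13RA2 and subunits of AP-1 (a dimeric transcription factor described downstream of IL13RA2) were grouped in a list of 9 measured genes. FOSL1 rose and FOSL2 fell with seminal plasma, and none passed with TGFB3. At an unadjusted limma p below 0.05, 2 were higher and 1 lower with seminal plasma (14.6% and 10.2% of all probe sets). With TGFB3, 2 were higher and none lower by that rule (4.06% and 3.48%). FOSL1 read 9248, 5908, 5062 and 4943 with seminal plasma, against 923, 2296, 1689 and 1548 with TGFB3 and 1085, 989, 2097 and 2015 in controls. All seminal plasma arrays lay above all others. The difference from control was 2.06 ± 0.35 (limma adjusted p = 0.021), and it missed the threshold without control replicate 1 or 2 (adjusted p = 0.0617 and 0.0528) and without seminal plasma replicates 3 and 4 (2.34, adjusted p = 0.0607).

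FOSL2 read 806, 852, 296 and 356 with seminal plasma, against 1515, 4051, 3428 and 2085 with TGFB3 and 2141, 2514, 2305 and 1984 in controls at 225262_at, a difference from control of -2.1 ± 0.4 (limma adjusted p = 0.028). The call was lost in 6 of the 12 fits that left out 1 array, those without any 1 control array or without seminal plasma replicate 3 or 4 (adjusted p 0.0586 to 0.0799), and without both seminal plasma arrays (-1.43, adjusted p = 0.122). All 5 FOSL2 probe sets had negative differences with seminal plasma, from -2.91 to -0.67, and 218881_s_at also passed (-2.91 ± 0.5, limma adjusted p = 0.021). JUN read 4283 to 11511 with TGFB3, 1358 to 5720.02 with seminal plasma and 1273 to 1947 in controls (TGFB3 minus control 2.36 ± 0.43, limma adjusted p = 0.0769, 0.0361 without seminal plasma replicate 4 and 0.0265 without replicates 3 and 4). JUNB read 3147 to 8282 with TGFB3 and 1494 to 2853 in controls (1.46 ± 0.54, limma adjusted p = 0.504).

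CHI3L1, a chitinase-like protein that binds IL13RA2, read 26.1, 16.9, 192 and 64.1 on seminal plasma replicates 1 to 4, against 14.6 to 29.2 with TGFB3 and 15.1 to 47.5 in controls. Seminal plasma replicates 3 and 4 were above all other arrays and replicates 1 and 2 within the range of the controls. The difference from control was 0.66 ± 0.66 with seminal plasma (limma adjusted p = 0.552), and -0.54 without replicates 3 and 4. TGFB1, whose production has been linked to IL13RA2 signalling, read 491 to 1081 with seminal plasma, 510.37 to 1995 with TGFB3 and 772 to 1059.86 in controls. Its difference from control was -0.11 ± 0.42 with seminal plasma (0.15 without replicates 3 and 4) and 0.42 ± 0.42 with TGFB3.

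IL13RA2 was also set beside 12 measured decoy receptors and antagonists of other cytokines. None passed limma's threshold against control with either treatment; at an unadjusted p below 0.05 none was higher or lower with seminal plasma, and 1 was higher and none lower with TGFB3. IL1R2, the interleukin 1 decoy, read 186, 563, 479 and 697 with seminal plasma, 49.8 to 328 with TGFB3 and 158 to 326 in controls (0.98 ± 0.59 with seminal plasma, limma adjusted p = 0.324). ACKR3, a scavenging chemokine receptor, read 758 to 2093 with TGFB3, 186 to 559 with seminal plasma and 466 to 608 in controls (TGFB3 minus control 1.36 ± 0.37, limma adjusted p = 0.276). TNFRSF10D, a decoy for the death ligand TRAIL, read 99.9 to 268 with TGFB3 and 197 to 432 in controls (-0.92 ± 0.43).

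Between both treatments, 3 of the 87 list genes were higher with seminal plasma than with TGFB3 (IL1RL1, ELOVL6 and FOSL1) and 4 lower (JAK1, TGM2, FOSL2 and ACKR3), where 0.95% of all probe sets were called higher and 0.78% lower. The IL1RL1 difference was 1.84 ± 0.26 (limma adjusted p = 0.0154) and the FOSL2 difference -2.31 ± 0.4 (adjusted p = 0.0297). Without seminal plasma replicates 3 and 4, IL1RL1 (adjusted p = 0.0434) and IL33 (2.8, adjusted p = 0.0279) were the ones higher and PIAS1 (-0.96, adjusted p = 0.0345) the one lower. In that fit 0.385% of all probe sets were called higher and 0.337% lower. Leaving out 1 array gave 0 to 6 higher and 0 to 9 lower. The most (6 and 9) came without seminal plasma replicate 2, where 7.46% of all probe sets were called higher and 5.46% lower. No higher call was left without TGFB3 replicate 3, where 0.103% of all probe sets were called higher.

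The genes whose pattern over the 12 arrays was nearest to that of IL13RA2 were sought among all singly named genes. The measure was the root mean square difference of their log2 deviations from the control mean. Each gene entered at its probe set of highest mean log2 value alone. Other probe sets, such as IL1RL1 207526_s_at with its larger rise with seminal plasma, were not ranked. MMP1, the interstitial collagenase, was nearest, at 0.77, followed by HMOX1 (haem oxygenase) at 1.2, SCG5 (a secretory chaperone) at 1.23 and RPPH1 (the RNA of ribonuclease P) at 1.29. MMP3 (a stromelysin) stood at 1.38, TRD at 1.41, SPOCD1 at 1.42 and AGPAT9 at 1.45. MMP1 deviated by 5.68, 4.32, 6.66 and 6.6 on seminal plasma replicates 1 to 4 and by 1.17, -0.74, -0.36 and 0.27 on TGFB3 replicates 1 to 4, beside 5.48, 4.35, 4.96 and 5.87, and 2.01, -0.26, 0.86 and -0.26, for IL13RA2. Both were thus lowest on replicate 2 among the seminal plasma arrays and highest on replicate 1 among the TGFB3 arrays. SCG5 and SPOCD1 differed from IL13RA2 with TGFB3, where they deviated by 1.8 to 2.72 and by 2.47 to 3.02. Without seminal plasma replicates 3 and 4, MMP1, HMOX1 and MMP3 ranked 1, 2 and 3, and the other 5 ranked between 15 and 80.

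**Figure D5:**
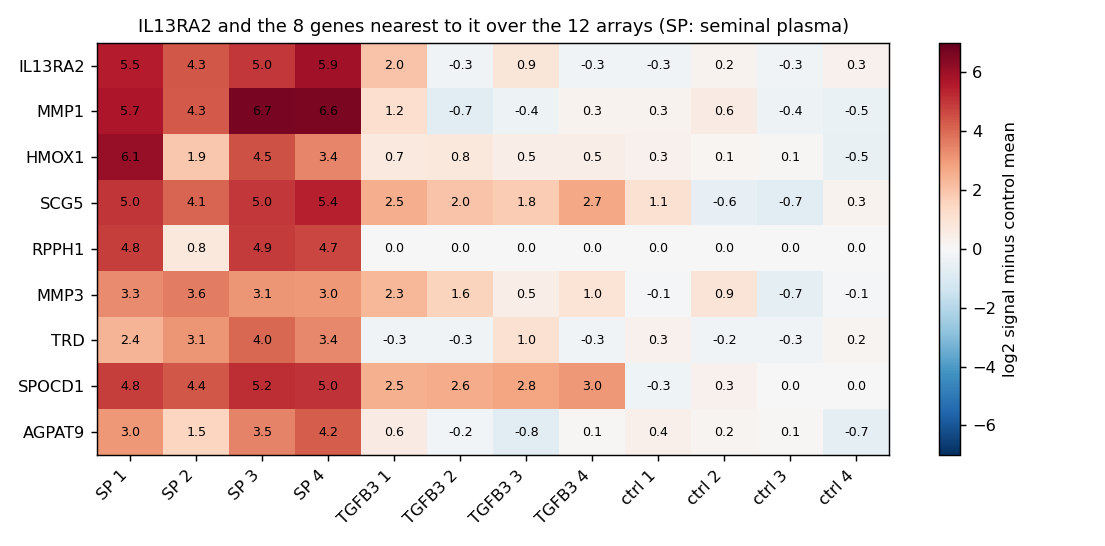
Log2 signal minus the control mean for IL13RA2 and the 8 genes nearest to it, with each gene ranked at 1 probe set. Columns are seminal plasma (SP), TGFB3 and control (ctrl) arrays from left to right, and red is above and blue below the control mean. All 9 rows are above 0 on every seminal plasma array, and SCG5 and SPOCD1 are also above 1 on every TGFB3 array.

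Markers of other cell types gave signals that differed widely between genes. The summed signal of 8 markers of mast cells, basophils and eosinophils, which can carry type 2 receptors, was 443 to 1256 with seminal plasma, 448 to 652 with TGFB3 and 466 to 755 in controls. For 7 general leukocyte markers it was 571 to 1203, 598 to 759 and 853 to 1238 in the same groups, and the one that passed was lower with seminal plasma (LYZ, mean 11.8 with seminal plasma and 50.8 in controls). CD14 averaged 424 with seminal plasma, 184 with TGFB3 and 688 in controls. PTPRC averaged 63.7, 21.7 and 15.1 in the same groups, ITGAM 141, 136 and 56.7, CD2 195, 112 and 83.2, and CD3E 94.0, 103 and 79.1, so the means of these 4 were higher with seminal plasma than in controls without passing. Sperm and testis markers, relevant because IL13RA2 is known as a testis antigen, summed to 364 to 652 with seminal plasma, 291 to 379.6 with TGFB3 and 324 to 388 in controls. None of the 8 passed the limma threshold, PRM1 averaged 169, 48.4 and 53.4, and PRM2, TNP2, SMCP and DDX4 went below 16 on arrays of all 3 groups. Prostate and seminal vesicle markers summed to 1413 to 2135 with seminal plasma, 962 to 1486 with TGFB3 and 1036 to 1413 in controls, and fibroblast markers to 1422 to 2232, 2596 to 4040.4 and 1277 to 2984. None of these passed. COL1A1 averaged 965 with seminal plasma, 2562 with TGFB3 and 1226 in controls, and KLK3 734, 585 and 511. With TGFB3 the means of COL1A2 and PDGFRA were also above controls, but those of COL3A1, PDGFRB, DCN, LUM and THY1 were below. Of the prostate and seminal vesicle markers, ACP3 alone averaged lower with seminal plasma (98.4) than in controls (166). The part of such RNA in the IL13RA2 signal was not tested.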

How the data were processed

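The deposited tables hold 1 linear intensity per probe set and array; the authors' table also gives a fold ratio, a p-value (not used here) and a 0 or 1 call score per treatment, as deposited. GCOS 1.4, MAS5, RMA, Partek and R 2.6.1 are named, in no stated order, by the submitters' processing notes; the linear scale was read from the values. Signals were floored at 16, taken to log2 and fitted with limma 3.58.1 (lmFit and eBayes, R 4.3.3) over all 54613 probe sets and 12 arrays, 1 mean per treatment, with Benjamini-Hochberg adjustment at 0.05. The fit was tested on simulated data. Each list gene was read at the probe set with the highest mean log2 value. Named list genes were the called ones (at most 4 per list and contrast), or in their absence the 2 of smallest p, plus the key ligands, chains and transducers.

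Members and lists were chosen with earlier results of these data known. TMEM219, IL31, IL9R, FCGBP, LORICRIN, TNFRSF6B, ACKR2, ACKR4 and the marker CD68 were not analysed here, having matched no single symbol. The labels describe the labelling step in 2 ways. With 4 arrays per group, precision is limited by that number.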

Additional observations from a re-analysis of the deposited data

Results flagged for a closer look

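In groups of 4 arrays, a sample was picked out by its gap to the nearest other array, as a share of the group's range. It was picked where that share exceeded Dixon's 95% critical value for 4 samples. Gap and range were taken on log2 values after the floor of 16, while the values printed below are signals. Of 141 groups checked (47 probe sets in 3 groups), 8 held such an array, and chance picks about 1 in 20. No probe set of IL13RA2, IL13RA1 or IL4R was among them. SOCS2 was lowest on seminal plasma replicate 3 (5166.15) and TGFB1 on seminal plasma replicate 4 (491.31), the 2 arrays whose signal distribution differed. IL25 was lowest on seminal plasma replicate 4 (35.67), and RPPH1 on seminal plasma replicate 2 (27.01, against 410.27 to 478.87 on the other seminal plasma arrays). IL2RG was lowest on control replicate 4 (44.95). IL33 on control replicate 3 (17.87), CHI3L1 on TGFB3 replicate 1 (29.24) and TRD on TGFB3 replicate 3 (39.26) were each highest in groups whose other arrays lay at or near the floor of 16.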

How the results depend on the processing

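No called value changed sign. Differences of IL13RA1 and IL4R did, as given with them, and not only those near 0. Seminal plasma minus control was 0.61 at IL4R 242743_at, -0.55 at IL13RA1 210904_s_at and -0.3 at IL4R 203233_at. All of these changed sign without seminal plasma replicates 3 and 4. Member differences moved by less than the spread between replicates in 407 of 420 repeats. Many of these repeats could not move a difference. The filter on dim probe sets, the replicate block and the fit to only the arrays compared leave it unchanged by design. So does leaving out arrays that belong to neither group of a comparison. The share of 407 in 420 is therefore no measure of stability. The cause of the other 13 was not tested beyond the setting itself. With a floor of 64, IL13RA2 differed by 3.42 from control and 3.36 from TGFB3 with seminal plasma, and its change exceeded that of the chains by 3.32. With arrays centred on their median, seminal plasma differed from control and from TGFB3 by -0.25 and -0.23 at IL13RA1 201887_at and by -0.33 and -0.54 at 211612_s_at. Without seminal plasma replicates 3 and 4 these differences were 0.06 and -0.19 at IL13RA1 210904_s_at, 0.23 and -0.02 at IL4R 203233_at and -0.01 and -0.33 at IL4R 242743_at, and 0.46 from control at IL13RA1 201887_at. Leaving out 1 array kept the IL13RA2 change minus that of the chains between 4.75 and 5.41 with seminal plasma and between -0.07 and 0.63 with TGFB3. The filter on dim probe sets left all 7 member probe sets in.

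Counts of calls also depended on the setting. For seminal plasma minus control, 948 probe sets were called higher and 660 lower, against 299 higher with arrays centred on their median, 1673 and 1651 without dim probe sets, 215 and 92 with the replicate block, 147 and 50 with only the 8 arrays compared, 319 and 220 without seminal plasma replicates 3 and 4, and 1914 and 1752 with trend and robust options. For seminal plasma minus TGFB3 (519 and 426) they were, in the same order, 119 and 250, 1038 and 1047, 31 and 16, 6 and 6, 210 and 184, and 1166 and 1186. For TGFB3 minus control (92 and 12) they were 54 and 7 with centring, 29 lower without dim probe sets, 20 and 1 with the replicate block, 205 and 95 with 8 arrays, 218 and 78 without seminal plasma replicates 3 and 4, 192 and 36 with trend and robust options, 42 lower with the floor of 64 and 22 lower after quantile normalization. Leaving out 1 array gave 194 to 5111 higher and 76 to 3789 lower for seminal plasma minus control, 56 to 4072 and 35 to 2983 for seminal plasma minus TGFB3, and 34 to 115 and 1 to 27 for TGFB3 minus control; the highest counts with seminal plasma came without its replicate 2. Replicate numbers were not taken to pair the arrays, since correlations of deviations between arrays of the same number ran from -0.09 to 0.15. Centring moved the share of calls that were higher from 59% to 38% for seminal plasma minus control and from 54.9% to 32.2% for seminal plasma minus TGFB3, and the floor of 64 moved it from 88.5% to 74.4% for TGFB3 minus control. The median over all probe sets for seminal plasma minus control was 0.2, and 0.01 after quantile normalization or -0.19 after centring.

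List genes called higher with seminal plasma than control (3) were 5 with the probe set of smallest p, 0 with centring, 1 with only the 8 arrays and 5 without seminal plasma replicates 3 and 4. Those called lower (2) were 1 with log2(signal + 16), 1 after quantile normalization, 0 with the replicate block, 0 with only the 8 arrays and 1 without seminal plasma replicates 3 and 4. Those called higher with TGFB3 than control (1) were 3 with the probe set of smallest p, 3 with log2(signal + 16), 2 after quantile normalization, 0 with centring, 3 without dim probe sets, 2 with the replicate block, 3 with 8 arrays, 5 without seminal plasma replicates 3 and 4 and 3 with trend and robust options. For seminal plasma minus TGFB3 the higher ones (3) were 1 with centring, 0 with the replicate block and 0 with 8 arrays. The lower ones (4) were 2 with centring, 8 without dim probe sets, 0 with the replicate block and 0 with 8 arrays. They were 1 without seminal plasma replicates 3 and 4 and 8 with trend and robust options. In this comparison 426 of 54613 probe sets were called lower in the main fit and 1186 with trend and robust options. Without dim probe sets 1047 of 30254 were called lower. That filter left 56 of the 87 list genes to be tested in each comparison. For TGFB3 minus control it left 138 of 30254 probe sets called higher. Leaving out 1 array gave 2 to 8 higher and 0 to 5 lower for seminal plasma minus control. The most (8 and 5) came without seminal plasma replicate 2, where 9.36% and 6.94% of all probe sets were called. The range was 0 to 3 higher for TGFB3 minus control. For seminal plasma minus TGFB3 it was 0 to 6 higher and 0 to 9 lower. The most (6 and 9) again came without seminal plasma replicate 2, where 7.46% and 5.46% of all probe sets were called. With centring IL1RL1 (1.37), SOCS2 (1.25) and FOSL1 (1.67) with seminal plasma and TGM2 (2.49) with TGFB3 kept their direction and missed the threshold. The files hold no detection call, so how far signals near 16 lie above background is unknown.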
